A study of Mus musculus with 14 samples.

Results

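Transfer of fatty acids into heart mitochondria, and the malonyl-CoA control of that transfer, was followed through 8 genes: Slc22a5, Cpt1a, Cpt1b, Slc25a20, Cpt2, Crat, Acacb and Mlycd. They were taken by symbol from a table of 24054 genes, and all 8 were among the 13588 genes that passed the filter on low counts. The material was mouse left ventricle (C56Bl6, as the labels spell the strain), sequenced as poly(A)-selected RNA in 14 libraries. The 5 libraries labelled HFpEF-FoxO1-sh came from a High-Fat and L-NAME diet of 6 weeks with an AAV carrying a hairpin against FoxO1 for 4 weeks. The 4 libraries labelled HFpEF-scr had the same 6 weeks of diet and an AAV with a scrambled hairpin for 4 weeks. The 5 controls received the control diet for 10 weeks, and no AAV is named for them. HFpEF is heart failure with preserved ejection fraction, and L-NAME inhibits nitric oxide synthase. Kind of diet, length of diet and virus therefore cannot be told apart between either HFpEF group and control. The promoter and serotype of the AAV, the age and sex of the mice and whether each library was a separate animal are not given in the sources used here, so p-values measure the spread between these libraries.

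Long-chain acyl groups cross the inner mitochondrial membrane only as carnitine esters. CPT1 in the outer membrane forms the ester, a carrier exchanges it for free carnitine, and CPT2 on the matrix side returns the acyl group to coenzyme A for beta-oxidation. Malonyl-CoA inhibits CPT1, so the enzymes that make and remove malonyl-CoA help set whether the heart burns fat or glucose.

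Levels are given as TMM-scaled counts per 1000000 counts (CPM), and a gene was called changed where edgeR's quasi-likelihood test, with Benjamini-Hochberg adjustment over all 13588 genes, gave an adjusted p under 0.05. In HFpEF-scr against control, 4 of the 8 genes rose (Cpt1b, Slc25a20, Cpt2 and Crat) and 0 fell, where 3.66% of all genes tested were called higher and 7.37% in either direction. In HFpEF-FoxO1-sh against control, 7 of the 8 rose, all but Cpt1a, where 6.68% of all genes were called higher and 13.0% in either direction. In HFpEF-FoxO1-sh against HFpEF-scr, 0 of the 8 were called, where 1.32% of all genes were called higher and 3.58% in either direction. In that last comparison 4 of the 8 had an unadjusted p under 0.05, as did 2676 of all 13588 genes tested. DESeq2 called 2 of the 8 there and limma voom called 0, with no share of all genes given for either tool. The median log2 fold change of the 8 was 0.39 for HFpEF-FoxO1-sh against control, 0.12 for HFpEF-FoxO1-sh against HFpEF-scr and 0.27 for HFpEF-scr against control, and the medians over all genes were -0.0030, 0.0044 and 0.0016 in the same order of comparisons. The 3 comparisons share libraries, so they are not independent of each other.

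**Figure D1:**
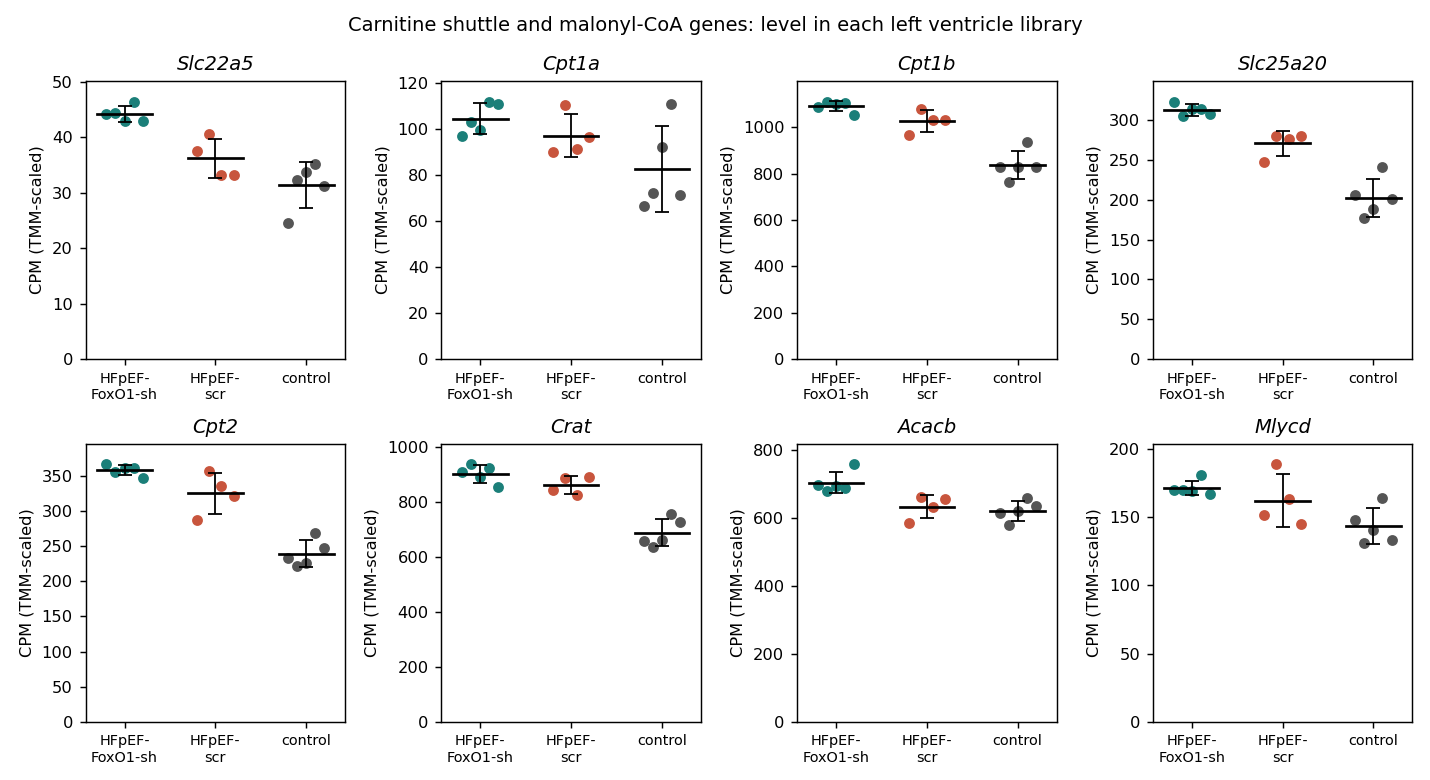
CPM (TMM-scaled, axes starting at 0) of the 8 genes in each of the 14 libraries, by group, with points for libraries, a line for the group mean and bars for the SD. All 5 HFpEF-FoxO1-sh libraries lie above all 5 controls for every gene except Cpt1a, for which control 4 reaches 111 CPM.

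Total counts ran from 13174118 to 21247155 per library. Foxo1, the target of the hairpin, had a mean of 42.4 ± 2.56 CPM in the HFpEF-FoxO1-sh libraries, 43.5 ± 3.74 CPM in HFpEF-scr and 44.0 ± 1.93 CPM in controls (SD, n = 5, 4 and 5). Its log2 fold change was -0.04 ± 0.061 (SE) in HFpEF-FoxO1-sh against HFpEF-scr (adjusted p = 0.78, 95% interval of the change -10.9% to 6.42%). The transcript thus does not bear out the knockdown label, and "HFpEF-FoxO1-sh" below names a library label, not a measured loss of Foxo1. Loss of Foxo1 in only some cells of this bulk tissue, or of its protein, was not tested. A gene on the other strand overlaps 7.78% of the Foxo1 exon bases, and the strand setting of the counting is not given. Summed cardiomyocyte markers ran from 125000 to 137000 CPM in HFpEF-FoxO1-sh, from 121000 to 131000 in HFpEF-scr and from 132000 to 141000 in controls. Of the 10 cardiomyocyte markers 3 fell in HFpEF-scr against control (Myh6, Myl2 and Myl3) and 0 rose, beside 7.37% of all genes called in either direction. There 9 of the 10 were below 0 (median log2 fold change -0.129). In HFpEF-FoxO1-sh against HFpEF-scr 9 were above 0 (median 0.0752) and 0 were called. The 8 members were above 0 there too, and a link between them and these markers was not tested. In bulk tissue, fewer cells of a type and less RNA per cell cannot be told apart. Defining markers of fat cells, another tissue rich in lipid enzymes, summed to at most 1.93 CPM in any library, and Retn was at 0 in all 14. Fibroblast markers summed to 716 to 905 CPM in HFpEF-FoxO1-sh, 969 to 1120 CPM in HFpEF-scr and 929 to 1070 CPM in controls. All 8 of these markers had a log2 fold change below 0 in HFpEF-FoxO1-sh against HFpEF-scr. Of them 3 were called lower, beside 3.58% of all genes called in either direction. All 8 were above 0 in HFpEF-scr against control. There 2 were called higher (Pdgfra and Lum), beside 3.66% of all genes called higher. In HFpEF-FoxO1-sh against control 4 were above 0 and 4 below. Of the 8, 3 were called lower there, beside 13.0% of all genes called in either direction. With a fibroblast score as a covariate, 5 members were called in HFpEF-FoxO1-sh against control, 0 in HFpEF-FoxO1-sh against HFpEF-scr and 4 in HFpEF-scr against control. The share of all genes called in this and the other refits is not given, so such counts have no background beside them. The score was the mean log2 CPM of the 8 markers, not their summed CPM. All 8 markers went the same way in HFpEF-FoxO1-sh against HFpEF-scr and in HFpEF-scr against control. Covariate and group are therefore partly confounded in those comparisons. In HFpEF-FoxO1-sh against control the sums did not overlap, but the markers went both ways, and overlap of the score was not examined. A call lost with this covariate does not tell covariate and group apart in any of the 3 comparisons. Of 7 pericyte and smooth muscle markers, 6 were above 0 in HFpEF-scr against control (median log2 fold change 0.30). Rgs5, Acta2 and Tagln were called higher, beside 3.66% of all genes called higher. The part of these markers in the members' changes was not tested. Immediate early genes, which respond to handling of tissue, summed to 186 to 1230 CPM in HFpEF-FoxO1-sh, 483 to 3200 CPM in HFpEF-scr and 162 to 1890 CPM in controls. With their score as a covariate 7, 0 and 4 members were called in the same order of comparisons. HFpEF-scr 1 held 6020 CPM of red cell transcripts, above all other libraries, and 4 members were also called in HFpEF-scr against control without it.

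Carnitine enters the muscle cell through Slc22a5 (OCTN2), the sodium-dependent carnitine transporter of the plasma membrane, annotated on the minus strand of chromosome 11 at 53864542 to 53891660 (GRCm38). It had 44.3, 44.4, 43.0, 46.5 and 42.9 CPM in the HFpEF-FoxO1-sh libraries, against 37.6, 40.7, 33.3 and 33.3 CPM in HFpEF-scr and 24.6, 32.3, 33.7, 35.2 and 31.2 CPM in controls. Every HFpEF-FoxO1-sh library was above every library of the other groups, while HFpEF-scr and control overlapped. Slc22a5 rose in HFpEF-FoxO1-sh against control, by a log2 fold change of 0.50 ± 0.082 (SE; adjusted p = 0.00095). Against HFpEF-scr the difference was 0.29 ± 0.087 with an adjusted p of 0.0715 and a 95% interval of 0.10 to 0.47. HFpEF-scr against control gave 0.21 ± 0.087 (adjusted p = 0.157), and 0.13 without control 1. Slc22a4 and Slc22a21 are close paralogs, and reads that match more than 1 of them were divided by the authors' estimate, so the Slc22a5 counts carry that uncertainty.

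The outer-membrane step is made by CPT1, of which Cpt1b encodes the muscle form and Cpt1a the liver form. Cpt1b (chromosome 15, 89416405 to 89425863, minus strand) had 1086, 1111, 1100, 1103 and 1055 CPM in HFpEF-FoxO1-sh, 967, 1081, 1033 and 1032 CPM in HFpEF-scr, and 829, 765, 828, 935 and 830 CPM in controls. All 9 libraries on the High-Fat and L-NAME diet exceeded all 5 controls, and both diet groups overlapped each other. Cpt1b rose by 0.38 ± 0.046 in HFpEF-FoxO1-sh against control (adjusted p = 5.9e-05) and by 0.30 ± 0.049 in HFpEF-scr against control (at an adjusted p = 0.0021), both on the log2 scale. HFpEF-FoxO1-sh against HFpEF-scr gave 0.09 ± 0.049 (adjusted p = 0.355, 95% interval -0.02 to 0.19). A readthrough gene on the same strand, Gm44502, shares 81.4% of the exon bases of Cpt1b in the annotation and has no entry in the count table, so its reads cannot be told apart from those of Cpt1b here.

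Cpt1a (chromosome 19, 3322334 to 3385733, plus strand) had 97.3, 103, 99.96, 112 and 111 CPM in HFpEF-FoxO1-sh, 90.4, 111, 91.5 and 96.5 CPM in HFpEF-scr, and 66.4, 72.4, 92.3, 111 and 71.7 CPM in controls. Control 4 reached into both diet groups and control 3 into HFpEF-scr, and the other 3 controls were below every diet library. In edgeR none of the 3 comparisons was called: the log2 fold changes were 0.34 ± 0.113 for HFpEF-FoxO1-sh against control (adjusted p = 0.0579), 0.11 ± 0.12 for HFpEF-FoxO1-sh against HFpEF-scr (adjusted p = 0.671), and 0.23 ± 0.12 for HFpEF-scr against control (at an adjusted p = 0.25). DESeq2 and limma voom did call Cpt1a in HFpEF-FoxO1-sh against control, at 0.34 and 0.37 (adjusted p = 0.0262 and 0.0377). Without control 4, Cpt1a was called in edgeR too, in HFpEF-FoxO1-sh against control at 0.47 (adjusted p = 0.0030) and in HFpEF-scr against control at 0.36 (adjusted p = 0.0313). Per kilobase of the longest coding transcript, Cpt1b was the most abundant of the 8 genes in each group, at 377 ± 7.5 CPM per kb in HFpEF-FoxO1-sh, 355 ± 16.2 in HFpEF-scr and 289 ± 21.1 in controls, and Cpt1a was near the bottom at 24.3 ± 1.54, 22.5 ± 2.17 and 19.2 ± 4.31 CPM per kb. Crat followed Cpt1b, and Slc22a5 had the lowest level by this length, at 14.4 ± 0.47, 11.8 ± 1.17 and 10.3 ± 1.34 CPM per kb. By the union of all annotated exons Cpt1b and Crat kept the 2 highest places, while the order of the others depended on the length used. The ratio of Cpt1a to Cpt1b CPM was 0.0961 ± 0.0070 in HFpEF-FoxO1-sh, 0.0945 ± 0.0058 in HFpEF-scr and 0.0983 ± 0.0164 in controls, and groups overlapped. Its log2 value differed by -0.02 in HFpEF-FoxO1-sh against control, 0.02 in HFpEF-FoxO1-sh against HFpEF-scr and -0.04 in HFpEF-scr against control, with two-sided exact permutation p of 0.857, 0.762 and 0.786 and an adjusted p of 0.857 for each over the 6 ratio tests.

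**Figure D2:**
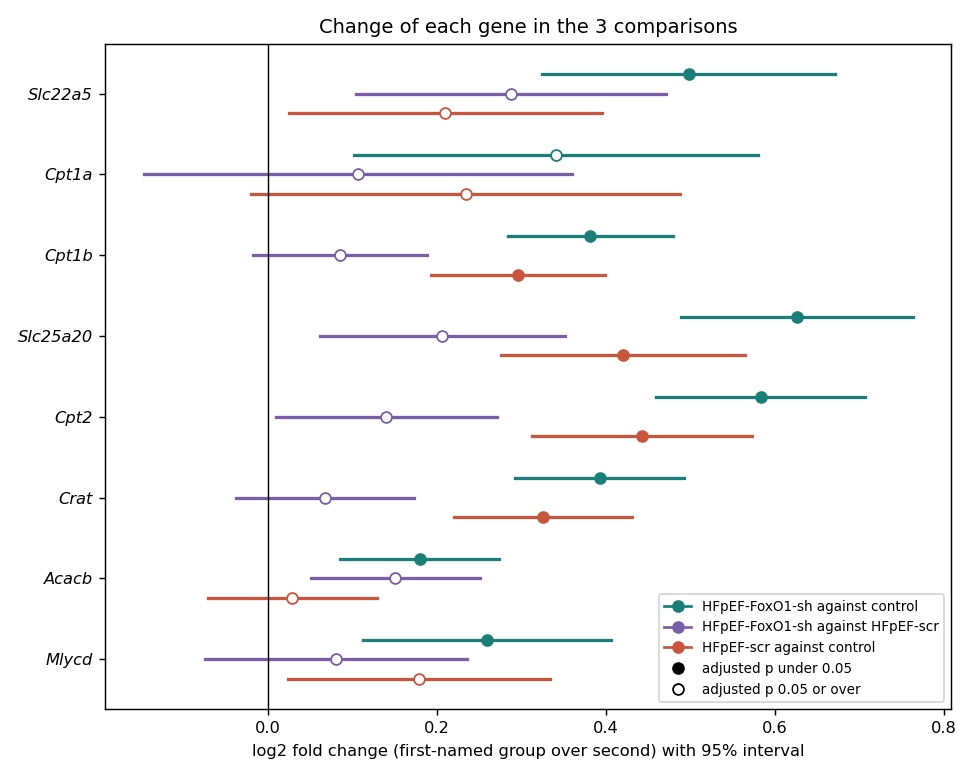
Log2 fold change (first-named group over second) of each gene with its 95% interval, for 3 comparisons, with filled points for an adjusted p under 0.05. Slc25a20 and Cpt2 have the largest changes, 0.63 and 0.58 in HFpEF-FoxO1-sh against control, and 0 points are filled in HFpEF-FoxO1-sh against HFpEF-scr.

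The acylcarnitine then crosses the inner membrane through the carnitine-acylcarnitine translocase encoded by Slc25a20, and CPT2 recovers the acyl-CoA. Their promoters are shown because these 2 genes had the largest changes against control. That of Cpt1a is shown as an example with a motif, and Acacb, which also has one, is not shown. The sequences are RefSeq windows from 250 bases before to 50 after the annotated start, in GRCm38.p6 coordinates and in the direction of transcription, and capitals mark a nuclear receptor half-site (AGGTCA, here on the other strand).
Slc25a20, chr9:108661886-108662185, plus strand: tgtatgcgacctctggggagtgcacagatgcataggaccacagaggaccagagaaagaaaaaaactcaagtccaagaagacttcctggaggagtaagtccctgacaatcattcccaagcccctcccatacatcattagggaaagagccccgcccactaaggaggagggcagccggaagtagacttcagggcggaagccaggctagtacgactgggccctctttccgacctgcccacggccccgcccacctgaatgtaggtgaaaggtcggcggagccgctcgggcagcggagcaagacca
Cpt2, chr4:107923540-107923839, minus strand: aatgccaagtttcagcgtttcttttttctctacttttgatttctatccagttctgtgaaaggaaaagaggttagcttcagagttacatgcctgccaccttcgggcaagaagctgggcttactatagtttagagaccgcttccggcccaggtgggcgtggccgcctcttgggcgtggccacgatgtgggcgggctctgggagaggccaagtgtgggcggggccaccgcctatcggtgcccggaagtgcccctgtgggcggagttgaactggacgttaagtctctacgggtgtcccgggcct
Cpt1a, chr19:3323051-3323350, plus strand: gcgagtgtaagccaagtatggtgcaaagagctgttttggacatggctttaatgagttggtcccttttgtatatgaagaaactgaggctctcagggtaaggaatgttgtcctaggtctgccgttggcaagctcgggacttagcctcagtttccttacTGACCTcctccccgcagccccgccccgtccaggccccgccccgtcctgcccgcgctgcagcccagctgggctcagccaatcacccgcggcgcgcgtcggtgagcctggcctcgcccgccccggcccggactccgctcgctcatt
Both strands were searched for the FoxO element GTAAACA, the half-site AGGTCA, the direct repeat of that half-site with a spacer of 1 base (AGGTCANAGGTCA) and the E-box CACGTG, and a direct repeat would count under the half-site too. Of 32851 RefSeq mouse promoters, 3.65% hold the FoxO element, 16.3% the half-site, 0.0396% the direct repeat and 7.15% the E-box. Of the 6 members matched in the table, Cpt1a has the half-site, with its distance from the start given as -94, and Acacb has it at 43 after the start. The other 4, Slc25a20, Cpt2, Slc22a5 and Mlycd, have none of the 4 motifs in this window, which says nothing of other positions or of binding. The windows of Cpt1a and Acacb (chr5:114165268-114165567) lie inside the gene spans given with each gene. They therefore belong to a start downstream of the outermost annotated one.

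Slc25a20 (chromosome 9, 108662088 to 108684641, plus strand) had 323, 305, 314, 314 and 307 CPM in HFpEF-FoxO1-sh, 248, 281, 276 and 280 CPM in HFpEF-scr, and 206, 177, 189, 241 and 201 CPM in controls. The 3 groups did not overlap for this gene: all HFpEF-FoxO1-sh libraries were highest, all HFpEF-scr libraries came next and all controls were lowest. It rose by 0.63 ± 0.065 in HFpEF-FoxO1-sh against control (adjusted p = 1.9e-05) and by 0.42 ± 0.068 in HFpEF-scr against control (at an adjusted p = 0.0020) on the log2 scale. HFpEF-FoxO1-sh against HFpEF-scr gave 0.21 ± 0.069, which was not called (adjusted p = 0.0959, 95% interval 0.06 to 0.35).

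Cpt2 (chromosome 4, 107903981 to 107923610, minus strand) had 367, 356, 362, 362 and 347 CPM in HFpEF-FoxO1-sh, 287, 357, 336 and 322 CPM in HFpEF-scr, and 234, 222, 226, 269 and 247 CPM in controls. Both diet groups lay wholly above the controls, and HFpEF-scr 2 reached into the range of the HFpEF-FoxO1-sh libraries. Cpt2 rose by 0.58 ± 0.058 in HFpEF-FoxO1-sh against control (adjusted p = 1.5e-05) and by 0.44 ± 0.061 in HFpEF-scr against control (at an adjusted p = 0.00053) on the log2 scale. In HFpEF-FoxO1-sh against HFpEF-scr its difference was 0.14 ± 0.062 (adjusted p = 0.214, 95% interval 0.01 to 0.27), and 0.087 without HFpEF-scr 1.

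Crat, carnitine acetyltransferase, moves acetyl groups between coenzyme A and carnitine in the matrix and so buffers acetyl-CoA (chromosome 2, 30400471 to 30415813, minus strand). It had 907, 935, 888, 924 and 853 CPM in HFpEF-FoxO1-sh, 841, 887, 823 and 890 CPM in HFpEF-scr, and 657, 637, 662, 753 and 725 CPM in controls. All 9 diet libraries were above all 5 controls, and the diet groups overlapped. Crat rose by 0.39 ± 0.047 in HFpEF-FoxO1-sh against control (adjusted p = 5.8e-05) and by 0.33 ± 0.05 in HFpEF-scr against control (at an adjusted p = 0.0012) on the log2 scale. HFpEF-FoxO1-sh against HFpEF-scr gave 0.07 ± 0.05 (adjusted p = 0.492, 95% interval -0.04 to 0.17). Genes on the other strand overlap 8.72% of the Crat exon bases, and the strand setting of the counting is not given in the sources used here.

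Acacb encodes acetyl-CoA carboxylase 2, which makes malonyl-CoA at the outer mitochondrial membrane, and Mlycd encodes malonyl-CoA decarboxylase, which removes it. Acacb (chromosome 5, 114146535 to 114250761, plus strand) had 697, 679, 695, 687 and 757 CPM in HFpEF-FoxO1-sh, 584, 660, 633 and 655 CPM in HFpEF-scr, and 613, 578, 619, 658 and 634 CPM in controls. All HFpEF-FoxO1-sh libraries exceeded all libraries of the other groups, and HFpEF-scr and control covered nearly the same range. Acacb rose in HFpEF-FoxO1-sh against control by 0.18 ± 0.045 on the log2 scale (adjusted p = 0.0151), and the call was lost with the fibroblast covariate at nearly the same size (0.17, adjusted p = 0.133). Its log2 fold change was 0.15 ± 0.047 in HFpEF-FoxO1-sh against HFpEF-scr (adjusted p = 0.0821, 95% interval 0.05 to 0.25) and 0.03 ± 0.047 in HFpEF-scr against control (at an adjusted p = 0.766, 95% interval -0.07 to 0.13).

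Mlycd (chromosome 8, 119394878 to 119411102, plus strand) had 170.2, 170.1, 169, 181 and 167 CPM in HFpEF-FoxO1-sh, 152, 189, 163 and 145 CPM in HFpEF-scr, and 148, 131, 140.3, 164 and 133 CPM in controls. HFpEF-FoxO1-sh lay above the controls without overlap, and HFpEF-scr overlapped both. Mlycd rose by 0.26 ± 0.069 in HFpEF-FoxO1-sh against control on the log2 scale (adjusted p = 0.0216). That call was lost with the fibroblast covariate, where the fold change was larger (0.30, adjusted p = 0.0928), and without control 2, control 3, control 5 or HFpEF-FoxO1-sh 4, with an adjusted p of at most 0.0598 in those 4 refits and log2 fold changes of 0.23 to 0.25. The other comparisons gave 0.08 ± 0.073 for HFpEF-FoxO1-sh against HFpEF-scr (adjusted p = 0.584) and 0.18 ± 0.073 for HFpEF-scr against control (at an adjusted p = 0.152). Without HFpEF-scr 2, the highest of its group for Mlycd, these were 0.16 and 0.096, and HFpEF-FoxO1-sh against HFpEF-scr gave 0.031 without HFpEF-scr 4. The ratio of Mlycd to Acacb CPM was 0.244 ± 0.0155 in HFpEF-FoxO1-sh, 0.256 ± 0.0266 in HFpEF-scr and 0.231 ± 0.015 in controls, and groups overlapped. Its log2 value differed by 0.08 in HFpEF-FoxO1-sh against control, -0.06 in HFpEF-FoxO1-sh against HFpEF-scr and 0.15 in HFpEF-scr against control, with two-sided exact permutation p of 0.222, 0.437 and 0.103 (adjusted 0.667, 0.857 and 0.619). The smallest p such a test allows is 0.00794 for 5 against 5 libraries and 0.0159 for 5 against 4.

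In HFpEF-FoxO1-sh against HFpEF-scr, 3 of the 8 genes had groups that did not overlap, Slc22a5, Slc25a20 and Acacb, where 4.11% of all genes tested were wholly higher. In HFpEF-FoxO1-sh against control this held for 7 of the 8, where 6.62% of all genes were wholly higher. In HFpEF-scr against control it held for 4 of the 8, against 4.29%. The adjusted p of Slc22a5, Slc25a20 and Acacb in HFpEF-FoxO1-sh against HFpEF-scr ran from 0.0715 to 0.0959. Slc22a5 and Acacb were the 2 genes that DESeq2 called (adjusted p = 0.037 and 0.0417), and Slc25a20 and Slc22a5 were called when only these 2 groups were fitted (adjusted p = 0.0408 and 0.0429).

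**Figure D3:**
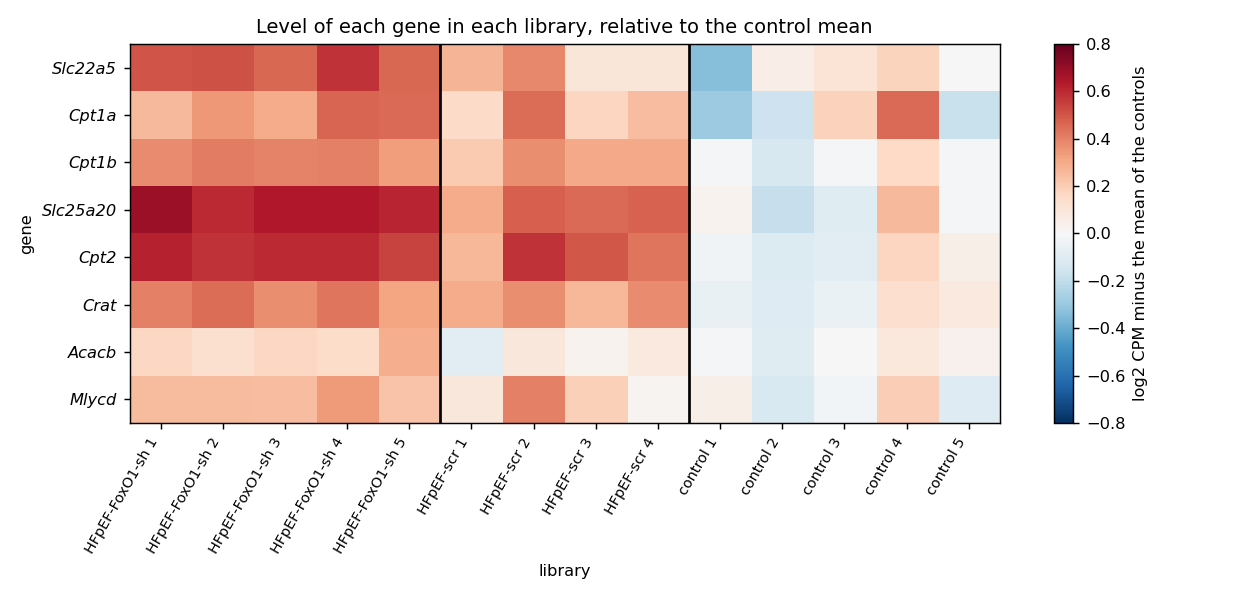
Log2 CPM of each gene in each library minus the mean of the 5 controls, with libraries in columns and genes down the page, red above and blue below that mean. The HFpEF-FoxO1-sh columns are above the mean for all 8 genes, and control 4 is the highest control for all 8.

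Libraries of a group tended to be high or low for the members together. Control 4 had the highest level of the 5 controls for 8 of 8 genes, and control 2 the lowest for 6. HFpEF-scr 2 had the highest level of its group for 7 genes, and HFpEF-scr 1 the lowest for 5. Over the 14 libraries, deviations of log2 CPM from the group means correlated positively in all 28 gene pairs, with a median Pearson r of 0.612, from 0.0499 for Slc25a20 and Slc22a5 to 0.909 for Cpt1b and Slc25a20. These points share library and depth, so the r values are a description. The same correlations among other genes were not computed, so the r values are not shown to be particular to the members. The 5 other genes whose log2 CPM over the 14 libraries was most like the members' mean z-score were Abcd3 (r = 0.974), Luc7l (0.973), Acaa2 (0.973), Lrrc39 (0.973) and Lgals4 (0.972), out of 8840 genes averaging 10 CPM or more. Abcd3 encodes a peroxisomal membrane transporter of acyl groups and Acaa2 a thiolase of mitochondrial beta-oxidation. Luc7l, Lrrc39 and Lgals4 are not placed in a lipid pathway here. The 5 genes are the top of a ranking on these same libraries, and a shared function was not tested.

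Upstream of the shuttle, 12 genes that form or bind acyl-CoA were all tested. In HFpEF-scr against control 3 rose and 0 fell (Dbi, Acsl1 and Acbd5), in HFpEF-FoxO1-sh against control 4 rose and 1 fell, and in HFpEF-FoxO1-sh against HFpEF-scr 0 were called. The shares of all genes called in either direction were 7.37%, 13.0% and 3.58% in the same order, and those called higher 3.66%, 6.68% and 1.32%. In the last of these comparisons, 3 of the 12 had an unadjusted p under 0.05, as did 2676 of all 13588 genes tested. DESeq2 and limma voom called 0 of the 12 there. The median log2 fold change of the list was 0.07 in HFpEF-FoxO1-sh against control, 0.06 in HFpEF-FoxO1-sh against HFpEF-scr and 0.11 in HFpEF-scr against control. Dbi, the acyl-CoA-binding protein, had 127.5 to 149 CPM in HFpEF-FoxO1-sh and 115 to 146 CPM in HFpEF-scr, against 81.5 to 90.5 CPM in controls. It rose by 0.71 ± 0.061 in HFpEF-FoxO1-sh against control (adjusted p = 3.9e-06) and by 0.59 ± 0.064 in HFpEF-scr against control (at an adjusted p = 6.6e-05), and both diet groups were clear of the controls. Acsl1, the main long-chain acyl-CoA synthetase of heart, rose by 0.32 in HFpEF-FoxO1-sh against control (adjusted p = 0.00026) and by 0.22 in HFpEF-scr against control (at an adjusted p = 0.0108). Acbd5, a peroxisomal membrane protein that binds acyl-CoA, rose by 0.23 (adjusted p = 0.0121) and by 0.26 (adjusted p = 0.0147) in the same comparisons. Acss2, the cytosolic acetyl-CoA synthetase, fell by 0.15 in HFpEF-FoxO1-sh against control (adjusted p = 0.04), a call lost in 7 of 10 refits that left out 1 library (control 1, 3 or 5, or HFpEF-FoxO1-sh 1, 3, 4 or 5; adjusted p up to 0.105), and with no filter on low counts (0.0691) or the fibroblast covariate (0.102). Acss2 was at -0.15 in HFpEF-scr against control (at an adjusted p = 0.0635). With the immediate early covariate the calls of Acsl1 and Acbd5 in HFpEF-scr against control were lost at log2 fold changes of 0.19 and 0.26 (adjusted p = 0.067 and 0.0548). With the fibroblast covariate those of Acbd5 and Slc27a1 in HFpEF-FoxO1-sh against control were lost at 0.16 and 0.49 (adjusted p = 0.215 and 0.0589). Acss1, the mitochondrial acetyl-CoA synthetase, was at 0.15 in HFpEF-FoxO1-sh against HFpEF-scr (adjusted p = 0.129; 0.0299 without HFpEF-scr 4), and Acbd3, a Golgi protein with an acyl-CoA-binding domain, was at -0.11 there (adjusted p = 0.175). The other gene called higher in HFpEF-FoxO1-sh against control, Slc27a1 (a fatty acid transport protein), rose by 0.51 there (adjusted p = 0.0033). It was named after its value was seen, and against HFpEF-scr it was not called (0.18, adjusted p = 0.362).

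Of 12 genes for carnitine supply and other carnitine transferases or carriers, 11 were in the table and 8 were tested. Bbox1, Slc22a16 and Slc6a14 were below the filter, and Tmlhe was not analysed here. In HFpEF-scr against control 0 rose and 1 fell, and in each of the other comparisons 1 rose and 0 fell. That is 1 of 8 in each, against 7.37% of all genes called in HFpEF-scr against control, 3.58% in HFpEF-FoxO1-sh against HFpEF-scr and 13.0% in HFpEF-FoxO1-sh against control. Slc25a29, a mitochondrial carrier of basic amino acids, had 9.40 to 12.9 CPM in HFpEF-FoxO1-sh and 6.65 to 8.94 CPM in HFpEF-scr, against 9.23 to 13.6 CPM in controls. HFpEF-scr lay below both other groups without overlap. Slc25a29 rose by 0.51 ± 0.123 in HFpEF-FoxO1-sh against HFpEF-scr (adjusted p = 0.0353), a call lost in 7 of 9 refits that left out 1 library (all but HFpEF-scr 1 and HFpEF-FoxO1-sh 5; adjusted p up to 0.085), and fell by 0.58 ± 0.122 in HFpEF-scr against control (at an adjusted p = 0.0113). Crot, the peroxisomal carnitine octanoyltransferase, rose by 0.24 in HFpEF-FoxO1-sh against control (adjusted p = 0.0205), and without control 3 the adjusted p was 0.0568. With the fibroblast covariate both Slc25a29 calls were lost, at 0.29 in HFpEF-FoxO1-sh against HFpEF-scr (adjusted p = 0.82) and -0.46 in HFpEF-scr against control (at an adjusted p = 0.147). With the immediate early covariate the first of these was lost at 0.49 (adjusted p = 0.0927). Crot was at 0.12 in HFpEF-scr against control (at an adjusted p = 0.324; 0.0488 without HFpEF-scr 1). Slc22a4, an organic cation and carnitine transporter, was at 0.30 in HFpEF-FoxO1-sh against HFpEF-scr (adjusted p = 0.147). Slc22a21, its mouse paralog, and Slc25a45 were at 0.56 and -0.13 in HFpEF-scr against control, neither called (adjusted p = 0.398 and 0.586), with group means of at most 4.03 CPM.

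Of 19 genes for malonyl-CoA supply and the AMP-activated kinase, all tested, 0 rose and 4 fell in HFpEF-scr against control, 1 rose and 0 fell in HFpEF-FoxO1-sh against HFpEF-scr, and 1 rose and 2 fell in HFpEF-FoxO1-sh against control. The shares of all genes called were 7.37%, 3.58% and 13.0% in the same order. Fasn, the fatty acid synthase that consumes malonyl-CoA, had 31.2 to 34.4 CPM in HFpEF-FoxO1-sh and 26.9 to 32.3 CPM in HFpEF-scr, against 40.2 to 47.0 CPM in controls. It fell by 0.40 in HFpEF-FoxO1-sh against control (adjusted p = 0.00045) and by 0.56 ± 0.064 in HFpEF-scr against control (at an adjusted p = 8.7e-05), with no overlap with the controls. Camkk2, a kinase that activates AMPK, fell by 0.60 (adjusted p = 0.000102) and by 0.50 (adjusted p = 0.0019) in the same comparisons. In HFpEF-scr against control, Acaca (acetyl-CoA carboxylase 1) fell by 0.38 (adjusted p = 0.035) and Prkab1 (an AMPK beta subunit) fell by 0.34 (adjusted p = 0.0423), and each call was lost in 6 of 9 refits that left out 1 library. For Acaca these were the refits without control 2, 3 or 5 or HFpEF-scr 2, 3 or 4 (adjusted p up to 0.103), and for Prkab1 those without control 2, 3 or 5 or HFpEF-scr 1, 2 or 4 (adjusted p up to 0.108). Both calls were also lost with only the 2 groups fitted and with either covariate, at -0.32 to -0.38 for Acaca (adjusted p up to 0.176) and -0.34 to -0.38 for Prkab1 (adjusted p up to 0.201). Mid1ip1, which promotes assembly of acetyl-CoA carboxylase into filaments, had 225.5 to 256 CPM in HFpEF-FoxO1-sh and 143 to 163 CPM in HFpEF-scr, against 116 to 208 CPM in controls. It rose by 0.67 ± 0.125 in HFpEF-FoxO1-sh against HFpEF-scr (adjusted p = 0.011), without overlap, and with the fibroblast covariate the fold change was larger at 0.77 with an adjusted p of 0.556. Against control it rose by 0.38 (adjusted p = 0.0408), a call lost in 6 of 10 refits that left out 1 library (control 4 or any of the HFpEF-FoxO1-sh libraries; adjusted p up to 0.0871), with only the 2 groups fitted (0.0523) and with the fibroblast covariate (0.43, adjusted p = 0.151). Acsf3, the mitochondrial malonyl-CoA synthetase, was 0.24 higher on the log2 scale in HFpEF-FoxO1-sh against HFpEF-scr but not called by edgeR (adjusted p = 0.051). It was called by DESeq2 (0.0268), with at least 10 counts required in every library (0.0487) and with only the 2 groups fitted (0.0461).

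**Figure D4:**
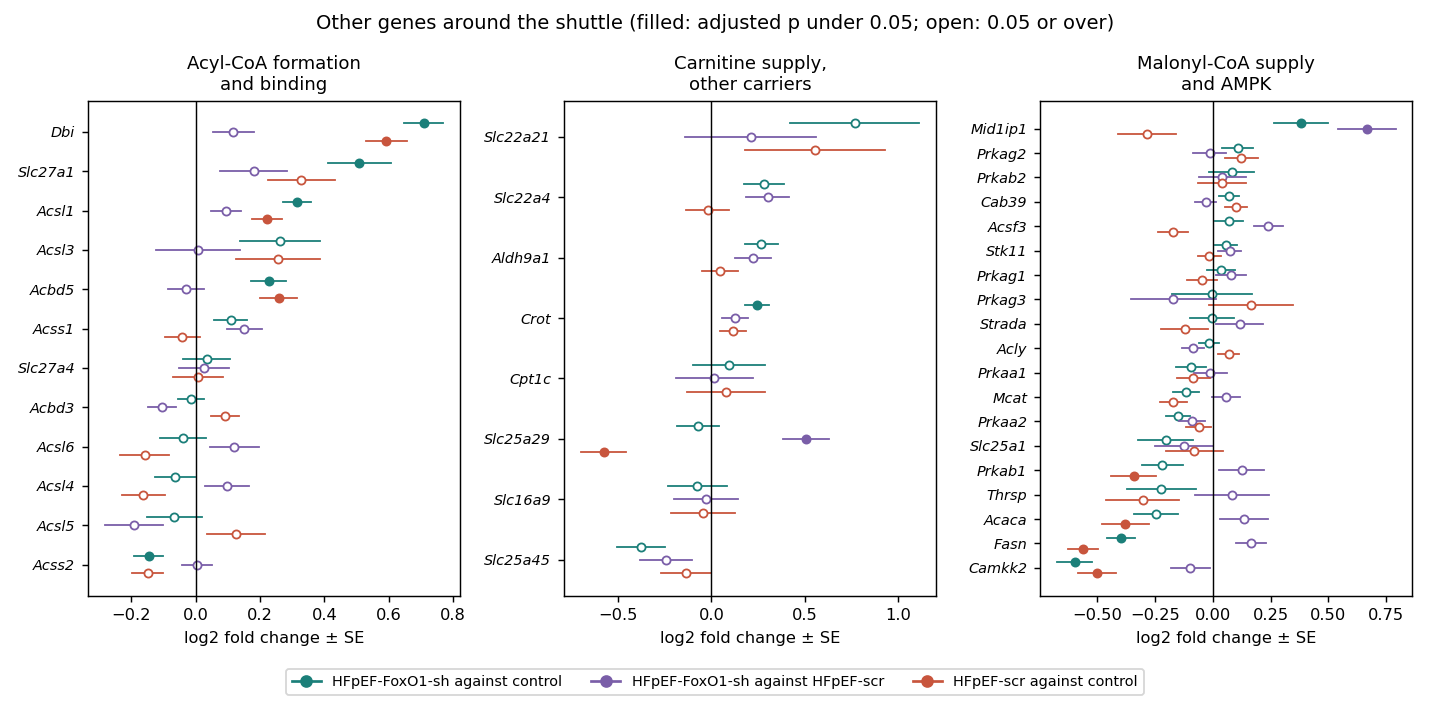
Log2 fold change with its SE (horizontal axis) of the tested genes of 3 lists around the shuttle (one panel per list) in 3 comparisons, with filled points for an adjusted p under 0.05. Dbi has the largest called rise of its panel, Fasn and Camkk2 are below 0 in both comparisons with control, and Mid1ip1 and Slc25a29 are the only filled points in HFpEF-FoxO1-sh against HFpEF-scr.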

How the data were processed

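Poly(A) RNA of mouse left ventricle was sequenced in 14 libraries (5 HFpEF-FoxO1-sh, 4 HFpEF-scr and 5 control), grouped by their labels. The authors deposited 1 table of expected counts per gene, in which 15.1% to 16.4% of values per library are not whole. The submitters' processing notes list the build mm10 with RSEM 1.2.15 and Bowtie2 2.1.0. From the deposited expected counts, rounded to whole numbers, TMM-scaled CPM and log2 fold changes were computed with edgeR 4.0.16 (R 4.3.3): filterByExpr, 1 coefficient per group over all 14 libraries, glmQLFit and glmQLFTest, two-sided, with Benjamini-Hochberg adjustment over 13588 genes and a threshold of 0.05. The SE is the fold change divided by the square root of its F statistic, and intervals are 95%. Alternatives used DESeq2 1.42.0 and limma 3.58.1 (voom), other filters, marker scores as covariates, a replicate block and leaving out each library. Ratios were tested by exact permutation. Gene positions are from GENCODE vM21 and promoters from RefSeq. The 8 genes and the lists were chosen with earlier results of these data known. The named genes are the 8, Foxo1, the 5 most alike in profile, and from each list up to 4 genes with the smallest p in HFpEF-scr against control and up to 2 in HFpEF-FoxO1-sh against HFpEF-scr. The fit was tested on simulated data. Total counts of 13174118 to 21247155 per library gave each of the 8 genes at least 435 counts in every library, and the common biological coefficient of variation was 0.0999.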

Additional observations from a re-analysis of the deposited data

Results flagged for a closer look

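In 3 of 24 groups of 4 or 5 libraries checked, 1 library stood apart from the rest of its group for a member gene by Dixon's criterion, which chance passes in about 1 of 20 groups. Acacb was at 757 CPM in HFpEF-FoxO1-sh 5, and the next library of that group was at 697 CPM. Mlycd was at 181 CPM in HFpEF-FoxO1-sh 4, next to 170.2 CPM. Slc25a20 was at 248 CPM in HFpEF-scr 1, next to 276 CPM, and HFpEF-scr 1 also held the highest red cell transcripts of the 14 libraries. Whether this had a part in its Slc25a20 level was not tested.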

How the results depend on the processing

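Of 440 member values recomputed under alternatives, 423 kept their direction and their side of the threshold, 6 lost the call, 9 gained it and 2 changed sign. The members called were 5 to 8 in HFpEF-FoxO1-sh against control, 0 in HFpEF-FoxO1-sh against HFpEF-scr except 2 with DESeq2 and 2 with only the 2 groups fitted, and 4 in HFpEF-scr against control except 5 without control 4. Counts of genes called under alternatives are given without the share of all genes called in the same refit. Sign changes were Acacb in HFpEF-scr against control (-0.00085 with the immediate early covariate), Crat in HFpEF-FoxO1-sh against HFpEF-scr (-0.045 with the fibroblast covariate) and Foxo1 (0.033 with the immediate early covariate in HFpEF-FoxO1-sh against HFpEF-scr, 0.035 with the fibroblast covariate in HFpEF-scr against control). Leaving out 1 library gave Foxo1 values of -0.075 to 0.015 and -0.071 to 0.019 in those comparisons. The log2 ratio of Cpt1a to Cpt1b then ran from -0.089 to 0.052 in HFpEF-FoxO1-sh against control, -0.011 to 0.063 in HFpEF-FoxO1-sh against HFpEF-scr and -0.11 to 0.029 in HFpEF-scr against control, and that of Mlycd to Acacb from 0.051 to 0.12, -0.13 to -0.0087 and 0.093 to 0.22 in the same order. The other pathway genes called numbered 5 with the fibroblast covariate in HFpEF-FoxO1-sh against control (9 in the reported fit). In HFpEF-FoxO1-sh against HFpEF-scr they were 1 with the immediate early covariate, 0 with the fibroblast covariate and 1 to 2 leaving out 1 library, and 3 with DESeq2, with at least 10 counts in every library and with only the 2 groups fitted (2 reported). In HFpEF-scr against control they were 4 and 5 with the 2 covariates, 6 with only the 2 groups fitted, and 6 to 10 leaving out 1 library (8 reported). Uncalled member values that moved by over 1.5 times were Acacb in HFpEF-scr against control (0.0044 to 0.062 leaving out 1 library), Cpt1a (0.16 in HFpEF-scr against control and 0.18 in HFpEF-FoxO1-sh against HFpEF-scr with the immediate early covariate, 0.18 in HFpEF-FoxO1-sh against HFpEF-scr without HFpEF-scr 2), and, in HFpEF-FoxO1-sh against HFpEF-scr, Cpt1b (0.051) and Mlycd (0.16) with the fibroblast covariate, Crat (0.11) with the immediate early covariate and Mlycd without HFpEF-scr 1 (0.052), beside those named with their genes. The causes were not tested. No pairing by replicate number was seen, though this cannot show that samples were unpaired. Deviations of 13 pairs with the same replicate number correlated from -0.194 to 0.111, and 1 was over 0.1. With a replicate block, 8, 0 and 4 members were called in the 3 comparisons as ordered above, Cpt1a being the gene gained (adjusted p = 0.0447). The other pathway genes called were then 8, 2 and 6, and the calls of Acss2 in HFpEF-FoxO1-sh against control (adjusted p = 0.0794) and of Acaca and Prkab1 in HFpEF-scr against control (0.0621 and 0.0835) were lost.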

Other observations

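The members varied least among the libraries labelled HFpEF-FoxO1-sh. Their coefficient of variation was lowest in that group for 8 of 8 members, with a median of 3.18% in HFpEF-FoxO1-sh, 7.43% in HFpEF-scr and 8.62% in controls. Over 8848 genes averaging 10 CPM or more, it was lowest in HFpEF-FoxO1-sh for 40% of genes, and the median was 6.06%, 7.14% and 6.26% in the same groups. The members' deviations correlate with each other, and control 4 was the highest control for 8 of 8 members. The 8 members are therefore not independent of each other in this count.

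Macrophage markers fell in HFpEF-FoxO1-sh against control for 5 of 5 genes tested (Cd68, Csf1r, C1qa, C1qb and Mrc1). There 13.0% of all genes were called in either direction. Adgre1, also listed as a marker, was not in the count table. The summed level of the 5 markers was 93.4 to 117 CPM in HFpEF-FoxO1-sh, 122 to 164 CPM in HFpEF-scr and 132 to 180 CPM in controls. Of the fibroblast markers, the collagen genes Col1a1, Col1a2 and Col3a1 fell in HFpEF-FoxO1-sh against both other groups. The shares of all genes called in either direction were 13.0% against control and 3.58% against HFpEF-scr. The 8 fibroblast markers did not fall together against control, where 4 were above 0 and 4 below (median log2 fold change -0.00068).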
